A study of Mus musculus with 4 samples.

Results

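The genes described here are 10 members of the replication stress and G2/M checkpoint: the kinase genes Atr, Atm, Chek1, Chek2, Wee1 and Pkmyt1, the ATR partner gene Atrip, and the phosphatase genes Cdc25a, Cdc25b and Cdc25c. They were chosen by symbol, as the pathway in which FAM122A is placed downstream of CHK1, and all 10 were found among 51912 Ensembl genes. Fam122a KO cells (2 libraries) were set against WT cells (2 libraries), all sorted from C57BL/6 mice 8 to 12 weeks old as LT-HSCs, the long-term stem cells of the blood and its most dormant progenitors. The sort gate was LSK (lineage-negative, Sca1+, Kit+), CD34- and Flk2-. Each library held RNA of cells pooled from 3 animals, and how the knockout was made is not given in the sources used here.

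When replication forks stall, ATR, bound to its partner ATRIP, phosphorylates CHK1, and double-strand breaks act mainly through ATM and CHK2. Both routes hold back the cyclin-dependent kinases (CDKs): WEE1 and PKMYT1 place inhibitory phosphates on CDK1, WEE1 also on CDK2, and the CDC25 phosphatases remove them. FAM122A binds and inhibits PP2A, a phosphatase. In human cells CHK1 phosphorylates FAM122A, which frees PP2A and stabilises the WEE1 protein. These steps act on proteins, whereas the values here are mRNA levels.

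Pkmyt1 was the checkpoint gene that rose in Fam122a KO, to a mean of 56.0 FPKM (fragments per kilobase of transcript, scaled to library size), against 26.7 FPKM in WT replicate 1, but the call was lost in 6 of 8 other processings of this comparison and with all 4 libraries. Cdc25b, Chek2, Cdc25a and Wee1 were also higher in both KO libraries than in both WT libraries but did not pass the test. With Pkmyt1 these were 5 of the 10, beside 33.5% of all genes tested. Atm was lower in both KO libraries than in both WT libraries, as were 29.3% of all genes tested, and did not pass either. Chek1 and Atr lay close to WT replicate 1.

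The promoters of Cdc25a, Cdc25b, Chek2 and Atm are shown because these genes had the widest differences from WT replicate 1 among those with a promoter entry. RefSeq windows (GRCm38.p6) of the 250 bases before the start were at hand for 7 of the 10 genes, without Wee1, Pkmyt1 and Cdc25c. Printed are the parts outside GENCODE M21 exons of any gene, at chr9:109875329-109875578 (plus strand), chr2:131186698-131186947 (plus strand), chr5:110839778-110839978 (plus strand) and chr9:53536741-53536921 (minus strand). Capitals mark matches on either strand to an E2F word (TTTGGCG or else TTTCGCG or else TTTCCCG or else TTTGCCG) or to the word CCAAT, and no marked matches overlap.
Cdc25a: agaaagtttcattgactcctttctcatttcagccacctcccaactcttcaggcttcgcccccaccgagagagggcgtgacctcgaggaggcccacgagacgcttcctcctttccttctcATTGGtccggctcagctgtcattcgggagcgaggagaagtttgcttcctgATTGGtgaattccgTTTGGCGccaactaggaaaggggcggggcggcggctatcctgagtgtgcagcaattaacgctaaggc
Cdc25b: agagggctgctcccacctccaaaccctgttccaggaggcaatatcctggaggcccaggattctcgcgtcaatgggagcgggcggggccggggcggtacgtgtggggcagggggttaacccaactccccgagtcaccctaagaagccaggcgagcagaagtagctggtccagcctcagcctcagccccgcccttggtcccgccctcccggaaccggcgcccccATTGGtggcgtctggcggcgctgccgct
Chek2: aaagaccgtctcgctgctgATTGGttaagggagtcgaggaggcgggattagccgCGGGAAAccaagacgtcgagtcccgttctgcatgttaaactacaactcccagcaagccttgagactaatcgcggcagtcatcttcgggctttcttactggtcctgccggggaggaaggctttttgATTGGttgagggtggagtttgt
Atm: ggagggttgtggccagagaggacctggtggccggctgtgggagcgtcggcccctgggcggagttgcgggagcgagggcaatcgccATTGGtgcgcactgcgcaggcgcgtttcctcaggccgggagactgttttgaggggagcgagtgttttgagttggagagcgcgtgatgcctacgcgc

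The Cdc25a window held an E2F word 67 bases before the start and the Chek2 window 1 at 151 bases, and the other 5 windows held none. Of 32851 promoter windows, 5.51% held such a word. CCAAT words stood in 5 of the 7 windows (Cdc25a and Chek2 with 2 each, Cdc25b, Atm and Atrip with 1), against 33.8% of all windows. The CHR words of G2/M promoters, TTTGAA and TTTAAA, were in none of the 7 and in 25.2% of all windows. The GC box word GGGCGG stood 4 times in the Cdc25b window, 2 times each in those of Cdc25a, where they overlap by 1 base, and Atr and 1 time in that of Atm, against 32.7% of windows with at least 1. These are letter matches in 1 window per gene. The Chek1 and Atr windows lay wholly within GENCODE M21 exons. That of Chek1 lay within the GENCODE span of the gene itself, so bases before that span were not read.

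That the values are FPKM was read from the values themselves, since the sources used here name no unit. WT replicate 2 differed from the KO libraries and WT replicate 1 in its RNA content. Its median ribosomal protein gene was at 13.1 FPKM, against 299.8 to 436 FPKM elsewhere. Unnamed MSTRG loci held 53.9% of its summed FPKM, against 9.14% in WT replicate 1 and 1.74% and 1.81% in KO replicates 1 and 2. Tests therefore set both KO libraries against WT replicate 1, and WT replicate 2 is given beside them. WT replicate 1 also differed from the KO libraries. Coding genes held 81.9% of its summed FPKM, against 90.9% and 90.0% in KO. Its median coding gene with a span over 9 times the exonic length was at 13.4 FPKM. That median was 7.465 and 7.68 FPKM in KO and 27.9 FPKM in WT replicate 2. Genotype and RNA content cannot be told apart here. P-values measure the spread between pools of animals. It came from the KO pair alone, and the lone WT library was assumed to vary like it. Low values implied 5940000 to 6820000 fragments in KO and 2530000 to 4250000 in WT, so that 1 fragment on 2000 effective bases was worth 0.073 to 0.20 FPKM. The targeted gene Fam122a was listed at 0 in both KO libraries, against 18.4 and 7.46 FPKM in WT replicates 1 and 2 (limma adjusted p = 0.00574).

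**Figure D1:**
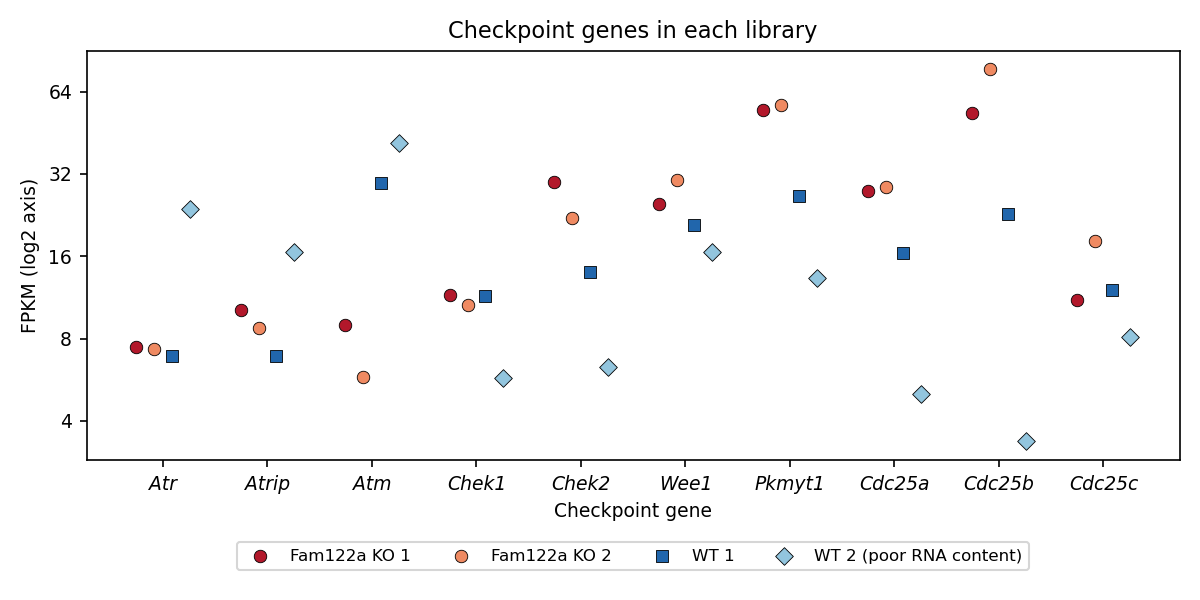
FPKM of the 10 checkpoint genes (log2 axis) in each library, with KO libraries as circles, WT replicate 1 as squares and WT replicate 2 as diamonds. Pkmyt1, Cdc25a, Cdc25b, Chek2 and Wee1 lie above both WT libraries in both KO libraries, as do 33.5% of all genes tested. Atm lies below both, as do 29.3% of all genes tested. The Pkmyt1 values are 54.9 and 57.1 FPKM in KO against 26.7 and 13.3 FPKM in WT.

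All 10 genes passed the filter on low values, a mean of at least 1 FPKM over the WT replicate 1 value and the KO mean. Of the 16580 genes tested, 1400 and 1363 were at 0 in KO replicates 1 and 2, against 136 in WT replicate 1. Of the 10 genes, 0 were at 0 in any library. The part of genes at 0 in the shares of all genes below was not tested. All 10 also passed the filter at 5 FPKM (11321 genes), whose counts are given at the end. At an adjusted p under 0.05 (limma, Benjamini-Hochberg over 16580 genes), 1 of 10 was higher in KO, against 0.814% of all genes tested, and 0 were lower, against 12.9%. Over all genes that was 135 higher and 2132 lower, or 536 higher and 1696 lower after quantile normalization. At an unadjusted p under 0.05, 2 of the 10 were higher (11.9% of all genes) and 1 was lower (23.3%). Both KO libraries were above WT replicate 1 in 7 of the 10 (40.1% of all genes) and below it in 1 (46.2%). They were above both WT libraries in 5 (33.5%) and below both in 1 (29.3%). Against WT replicate 2 alone, limma called 5 of the 10 higher (Pkmyt1, Cdc25a, Cdc25b, Chek2 and Chek1) and 2 lower (Atr and Atm), beside 7480 genes called higher and 4919 lower of 16580. The median difference in log2(FPKM + 1) was 0.39 for the 10 genes and -0.06 for all genes tested. It was 0.28 for coding genes with a span under 4 times the exonic length, a class that holds 6 of the 10. The part of span in the differences of the 10 genes was not tested. Scaling moved the median of all genes to 0.15 with equal FPKM totals, to 0.17 with quantile normalization and to -0.21 with median-of-ratios factors.

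Among the apical kinases, Atr (GRCm38 chromosome 9, 95857597 to 95951781, plus strand) was at 7.44 and 7.31 FPKM in KO replicates 1 and 2, against 6.90 and 23.8 FPKM in WT replicates 1 and 2. The KO libraries and WT replicate 1 were within 0.10 of each other on the log2 scale, and WT replicate 2 stood above all 3. The fitted difference was 0.08 (SE 0.19, 95% interval -0.77 to 0.94, limma adjusted p = 0.774), and its sign turned with median-of-ratios scaling (-0.056) and against WT replicate 2 alone, where Atr was called lower (-1.56, adjusted p = 0.0137). Atrip (chromosome 9, 109057933 to 109074124, minus strand), whose product recruits ATR to single-stranded DNA, was at 10.2 and 8.78 FPKM in KO, against 6.93 and 16.6 FPKM in WT. The KO values lay between those of the WT libraries. Its difference from WT replicate 1 was 0.40 (SE 0.22, adjusted p = 0.331). The exons of Atrip share 1147 of 7152 bases with Trex1, an exonuclease gene at 60.2 and 47.5 FPKM in KO and 88.1 and 1.71 FPKM in WT, so the reads of Atrip and Trex1 are uncertain there.

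Atm, the kinase gene of the double-strand break response, was at 8.96 and 5.77 FPKM in KO, against 29.7 and 41.4 FPKM in WT. All KO values were below all WT values, at 0.25 times WT replicate 1 on average. The difference was -1.90 (SE 0.38, 95% interval -3.63 to -0.17, unadjusted p = 0.0423, limma adjusted p = 0.130), and it did not pass. Atm spans 97592 bases of chromosome 9 (GRCm38, 53439149 to 53536740, minus strand), 9.44 times its 10338 exonic bases. Coding genes with a span over 9 times the exonic length had a median difference of -0.40 and 17.5% called lower (4542 genes), against 0.28 and 2.27% for those under 4 times (4678 genes). Atm lay at percentile 23.8 of the long-span genes and percentile 1.77 of the short-span genes. With the profile of WT replicate 2 taken off that of WT replicate 1, the difference of Atm was -1.69. Of the long-span genes, 65.5% had differences below 0, and among those with higher differences Chek2 (span ratio 11.4) lay at percentile 92.3. The part of the long span of Atm in its lower value was not tested.

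Chek1 (chromosome 9, 36708482 to 36727065, minus strand), which encodes the kinase between ATR and the cell cycle engine, was at 11.5 and 10.6 FPKM in KO, against 11.5 and 5.75 FPKM in WT. The KO libraries lay on either side of WT replicate 1, and WT replicate 2 was lowest. The difference was -0.05 (SE 0.17, 95% interval -0.83 to 0.72, adjusted p = 0.843), an interval that takes in changes of either direction. Its sign turned with equal FPKM totals (0.16), with quantile normalization (0.099) and against WT replicate 2 alone, where Chek1 was called higher (0.83, limma adjusted p = 0.0447). Chek2 (chromosome 5, 110839979 to 110874145, plus strand), the effector kinase gene of the ATM route, was at 30.0 and 22.0 FPKM in KO, against 14.1 and 6.30 FPKM in WT. Both KO libraries were above both WT libraries. The difference from WT replicate 1 was 0.83 (SE 0.29, adjusted p = 0.217) and did not pass. Chek2 stood at 2.60 and 2.08 times Chek1 within the KO libraries, against 1.22 and 1.10 times within WT.

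Pkmyt1 (chromosome 17, 23726336 to 23736735, plus strand), the membrane-bound CDK1 kinase gene, was at 54.9 and 57.1 FPKM in KO, against 26.7 and 13.3 FPKM in WT. The KO libraries were close to each other, at 56.0 ± 1.57 FPKM (SD, n = 2), and well above both WT libraries. Pkmyt1 rose by this measure (difference 1.04, SE 0.08, 95% interval 0.69 to 1.39, limma adjusted p = 0.0490). It stood at percentile 92.7 of the differences of all genes tested. The direction held in 8 other processings with WT replicate 1 as the WT library (0.89 to 1.27), but the call held in 2 of them (limma adjusted p = 0.0286 to 0.0726). With all 4 libraries the difference was 1.52 and did not pass (adjusted p = 0.452), and against WT replicate 2 alone it was 1.99 (adjusted p = 0.00783). Its exons share 319 of 3643 bases with Paqr4 on the other strand, at 5.30 and 4.57 FPKM in KO and 2.94 and 0 FPKM in WT; the library kit does not mark strand.

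Wee1 (chromosome 7, 110122046 to 110143286, plus strand), the nuclear kinase gene of the same pair, was at 24.8 and 30.5 FPKM in KO, against 20.8 and 16.6 FPKM in WT. All KO values were above all WT values, by a narrow margin. The difference from WT replicate 1 was 0.39 (SE 0.20, 95% interval -0.54 to 1.31, adjusted p = 0.323) and did not pass. Pkmyt1 stood at 2.22 and 1.87 times Wee1 within the KO libraries, against 1.28 and 0.80 times within WT. A common scaling factor of a library cancels in these ratios, and their difference was not tested. A difference linked to span would not cancel, and the span ratio is 2.85 for Pkmyt1 and 6.21 for Wee1. The span of Wee1 overlaps that of 1600010M07Rik on the other strand, with 0 exonic bases shared.

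**Figure D2:**
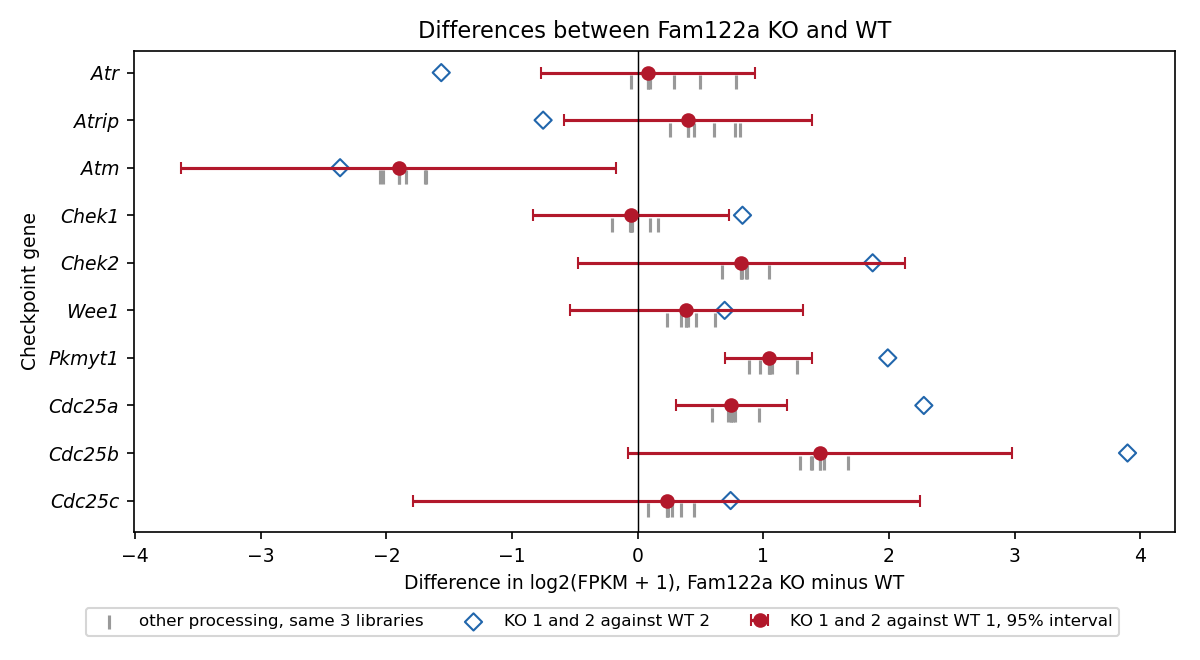
Difference in log2(FPKM + 1), Fam122a KO minus WT, for each checkpoint gene. Filled circles with bars are both KO libraries against WT replicate 1 with 95% intervals, grey ticks the same 3 libraries under other processings, and diamonds both KO libraries against WT replicate 2. The intervals of Pkmyt1 (0.69 to 1.39), Cdc25a (0.30 to 1.19) and Atm (-3.63 to -0.17) leave out 0 before adjustment, and Atr, Atrip and Chek1 change side with the WT library.

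Among the phosphatases that release CDKs, Cdc25a (chromosome 9, 109875579 to 109893895, plus strand), which acts at the G1/S step and beyond, was at 27.8 and 28.8 FPKM in KO, against 16.5 and 5.04 FPKM in WT. Both KO libraries were above both WT libraries, and they averaged 28.3 ± 0.67 FPKM (SD, n = 2). The difference from WT replicate 1 was 0.75 (SE 0.10, 95% interval 0.30 to 1.19, unadjusted p = 0.0193, adjusted p = 0.0879) and did not pass. It passed with no filter on low values, over 30258 genes (adjusted p = 0.0418).

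Cdc25b (chromosome 2, 131186949 to 131198497, plus strand), the phosphatase gene linked to entry into mitosis, was at 53.4 and 77.2 FPKM in KO, against 22.9 and 3.37 FPKM in WT. It had the highest difference of the 10 genes, 1.45 (SE 0.34, 95% interval -0.08 to 2.98), at percentile 97.2 of all genes tested. The KO libraries differed from each other (65.3 ± 16.9 FPKM, SD, n = 2), and the test did not pass (adjusted p = 0.148). Cdc25c (chromosome 18), a mitotic phosphatase gene, was at 11.1 and 18.2 FPKM in KO, against 12.0 and 8.13 FPKM in WT. Its KO values lay on both sides of WT replicate 1 (0.23, SE 0.44, adjusted p = 0.739). Its exons share 623 of 4919 bases with Gm3550 on the other strand, which was at 0.83 and 1.43 FPKM in KO and 1.66 and 10.7 FPKM in WT.

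Cdc25b held 57.8% and 62.2% of the summed FPKM of the 3 CDC25 genes in the KO libraries, against 44.6% and 20.4% in WT. The share of Cdc25c was 12.0% and 14.7% in KO, against 23.4% and 49.2% in WT. Cdc25a held 30.2% and 23.2% in KO, against 32.1% and 30.5% in WT, a narrower gap. The 3 CDC25 genes summed stood at 1.16 and 1.42 times Wee1 and Pkmyt1 summed in KO, against 1.08 and 0.55 times in WT. Atm stood at 1.20 and 0.79 times Atr in KO, against 4.30 and 1.74 times in WT. The span ratio is 9.44 for Atm and 3.99 for Atr, and a difference linked to span would not cancel between them. None of these shares and ratios was tested.

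**Figure D3:**
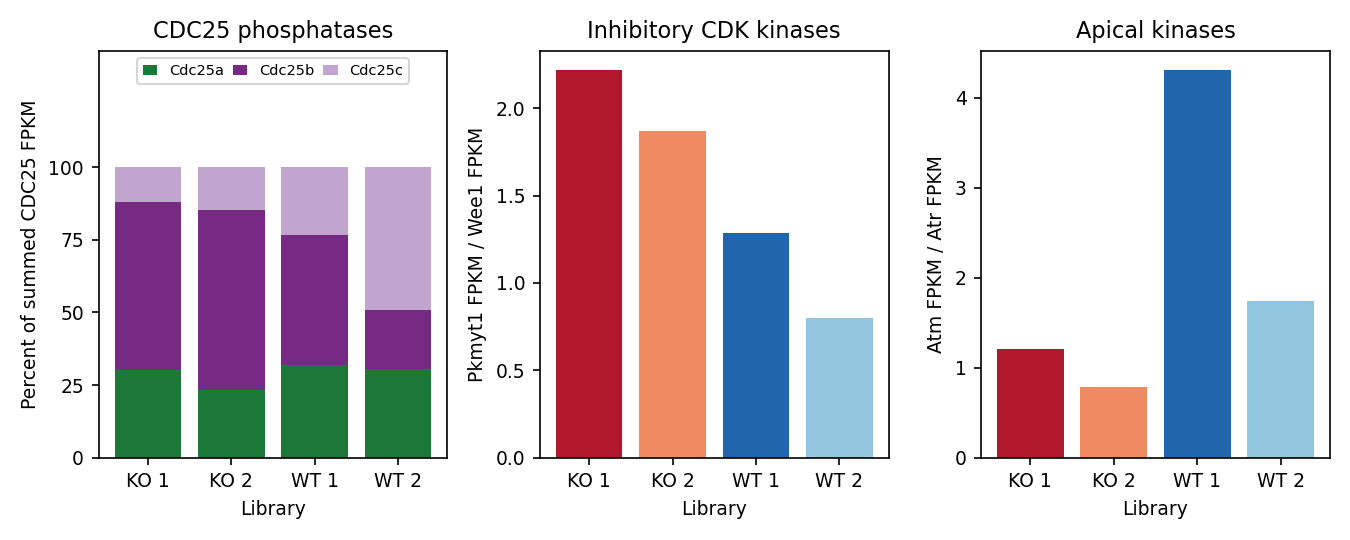
Ratios within each library, KO left of WT: the share of each CDC25 gene in their summed FPKM (stacked bars, percent), Pkmyt1 over Wee1 and Atm over Atr. Cdc25b holds 57.8% and 62.2% in KO against 44.6% and 20.4% in WT, and Atm over Atr is 1.20 and 0.79 in KO against 4.30 and 1.74 in WT.

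The order of levels differed between libraries. Pkmyt1 and Cdc25b were the highest of the 10 in both KO libraries and exchanged first place between them. Cdc25a, Wee1 and Chek2 followed, at 22.0 to 30.5 FPKM in KO, in an order that also differed between the KO libraries. Chek1, Cdc25c, Atrip, Atm and Atr were the lowest 5 in both, at 5.77 to 18.2 FPKM. In WT replicate 1 Atm was highest and Atr lowest. In WT replicate 2 Atm and Atr were the highest, Atrip and Wee1 followed at the same value of 16.6 FPKM, and Cdc25b was lowest. By Euclidean distance in log2(FPKM + 1) over the 4 libraries, the coding genes most like Chek1 among 12868 were Slc25a16 (distance 0.12), Ganc (0.17) and Zscan29 (0.18). Slc25a16 was at 12.3 and 11.2 FPKM in KO and 11.2 and 5.73 FPKM in WT.

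The wider pathway was read in 4 lists. Of 21 checkpoint sensor and mediator genes, 20 were tested, 0 passed with limma and 3 of the 20 were higher at an unadjusted p under 0.05, near the 11.9% of all genes (median difference 0.33). Clspn, which encodes the claspin adaptor that brings CHK1 to ATR, was at 21.7 and 22.3 FPKM in KO, against 8.58 and 1.62 FPKM in WT (1.26, SE 0.12, adjusted p = 0.0666). Topbp1, the ATR activator gene, was at 60.1 and 65.6 FPKM in KO and 45.2 and 28.0 FPKM in WT, and H2afx, the histone gene whose product ATM and ATR phosphorylate, at 269 and 368 FPKM in KO and 123 and 0.68 FPKM in WT. Nbn, of the break-sensing MRN complex, was at 13.4 and 13.3 FPKM in KO and 20.3 and 17.8 FPKM in WT. Topbp1, H2afx and Nbn had limma adjusted p = 0.138 to 0.143.

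Of 7 genes for the cyclins and CDKs that WEE1 and CDC25 act on, 0 passed with limma, 1 of the 7 was higher at an unadjusted p under 0.05 (11.9% of all genes), and the median difference was 0.47. Ccna2 (cyclin A2) was at 159 and 179 FPKM in KO and 112 and 1.99 FPKM in WT, and Cdk2 at 59.1 and 65.8 FPKM in KO and 45.9 and 2.41 FPKM in WT. Ccnb2 was at 131 and 156 FPKM in KO and 94.9 and 1.21 FPKM in WT, and Ccne1 at 32.3 and 49.4 FPKM in KO and 18.8 and 0 FPKM in WT; for these 4 genes limma adjusted p = 0.137 to 0.229. Of 22 regulators of the WEE1 and CDC25 proteins, 0 passed with limma and 3 of the 22 were higher at an unadjusted p under 0.05, again near 11.9% (median 0.22). Fbxw7, of a ubiquitin ligase that degrades cyclin E, was at 37.7 and 30.0 FPKM in KO and 12.4 and 29.4 FPKM in WT, and Plk1, the mitotic kinase that marks WEE1 for degradation, at 78.5 and 101 FPKM in KO and 42.6 and 1.63 FPKM in WT. Ensa, whose product inhibits PP2A with the B55 subunit, was at 64.1 and 68.6 FPKM in KO and 48.0 and 0.63 FPKM in WT, and the mitotic kinase gene Aurka at 59.97 and 68.4 FPKM in KO and 41.2 and 0.97 FPKM in WT. For these 4 genes limma adjusted p = 0.107 to 0.145.

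Genes of dividing cells and of other blood lineages were read in the same fit. Of 8 proliferation genes, which summed to 1194 and 1498 FPKM in KO against 967 and 29.8 FPKM in WT, all had differences above 0 (median 0.60) and 1, Mki67, rose, at 61.8 and 66.6 FPKM in KO against 21.6 and 1.86 FPKM in WT (1.53, SE 0.10, adjusted p = 0.0400). With all 4 libraries Mki67 did not pass (3.02, limma adjusted p = 0.330), and with a pseudocount of 0.1 adjusted p = 0.0577. Of all 16580 genes tested, 7786 had differences above 0 and 0.814% were called higher. The median proliferation gene was at 144 and 183 FPKM in KO, against 110 and 2.86 FPKM in WT. Relative to it, Pkmyt1 was at 0.38 and 0.31 times in KO, against 0.24 and 4.67 times in WT replicates 1 and 2. Cdc25b was at 0.37 and 0.42 times in KO, against 0.21 and 1.18 times in WT. Chek1 was at 0.080 and 0.058 times in KO, against 0.10 and 2.01 times in WT, and Wee1 at 0.17 and 0.17 times in KO, against 0.19 and 5.83 times in WT. By this ratio Pkmyt1 and Cdc25b were above WT replicate 1 in both KO libraries, as was Cdc25a (0.19 and 0.16 against 0.15). Chek1, Wee1, Atr, Atm and Cdc25c were below WT replicate 1 in both, and Chek2 and Atrip lay on both sides of it. Every checkpoint gene had its highest ratio in WT replicate 2 (1.18 to 14.5), where the median proliferation gene was at 2.86 FPKM. The comparison with WT replicate 2 therefore does not separate the checkpoint genes from each other. These ratios were not tested. B-cell precursor markers were above WT replicate 1 in both KO libraries in 8 of 8 genes (40.1% of all genes). They summed to 1313 and 2069 FPKM in KO, against 218 and 13.3 FPKM in WT. Among them Vpreb2 rose, at 47.8 and 37.9 FPKM in KO against 1.25 and 0 FPKM in WT. It did not pass with all 4 libraries. Erythroid markers were above WT replicate 1 in 6 of 7 (40.1% of all genes). They summed to 33791 and 45486 FPKM in KO, against 30115 and 115 FPKM in WT. Neutrophil markers were below WT replicate 1 in 7 of 7 (46.2% of all genes). The neutrophil markers summed to 70463 and 61553 FPKM in KO, against 164997 and 330.2 FPKM in WT. The part of these marker lists in the checkpoint gene values was not tested. In these bulk libraries fewer cells of a type and less RNA per cell cannot be told apart.

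The stem cell label was read from 10 markers. They summed to 536 and 536 FPKM in KO, against 567 and 428 FPKM in WT, with 0 of 10 passing with limma. At an unadjusted p under 0.05, 3 of 10 were lower, against 23.3% of all genes. Tek, among them, was at 4.43 and 2.74 FPKM in KO, against 41.5 and 79.7 FPKM in WT. The spans of Tek, Mecom and Fgd5 are 28.8, 48.0 and 15.4 times their exonic lengths. The median long-span gene was lower in KO than in WT replicate 1 and higher in WT replicate 2. The part of span in these marker values was not tested. The sum in WT replicate 2 lay mostly in Mecom (254 FPKM), Tek and Fgd5 (67.6 FPKM), and its median marker was at 3.04 FPKM, against 35.6 and 34.9 FPKM in KO and 44.1 FPKM in WT replicate 1. None was at 0 in KO or WT replicate 1, and in WT replicate 2 Ly6a (Sca1) and Procr were at 0. Cd34, which the gate selects against, was present at 87.7 and 62.1 FPKM in KO and 179 and 18.2 FPKM in WT, as was Flt3 (Flk2) at 36.2 and 24.7 FPKM in KO and 26.2 and 16.1 FPKM in WT.

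**Figure D4:**
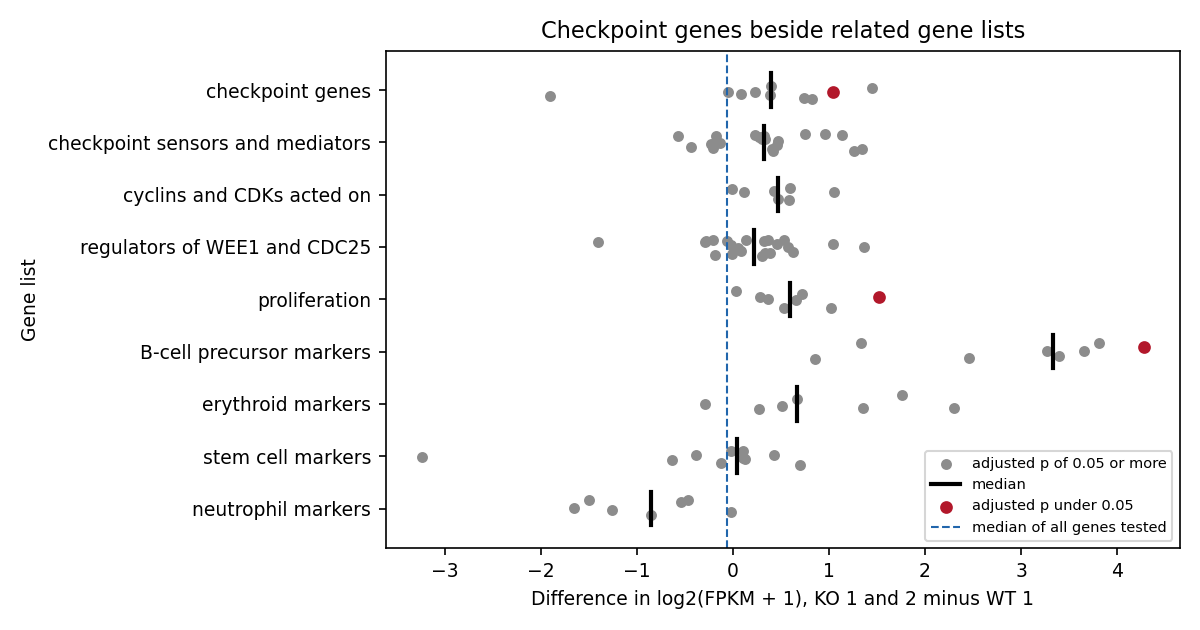
Difference in log2(FPKM + 1), both KO libraries minus WT replicate 1, for each gene of the checkpoint set, 4 related lists and 4 marker lists; red points passed an adjusted p of 0.05, black bars are list medians and the dashed line is the median of all genes tested (-0.06). The checkpoint genes (median 0.39) lie among the related lists (0.22 to 0.60), and the B-cell precursor markers lie farthest to the right (3.33).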

How the data were processed

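RNA from sorted LT-HSCs was made into SMART-Seq v4 libraries, per the labels' protocols. The deposited files hold 87703 features each, 51912 Ensembl genes and 35791 MSTRG loci, with 1 value that was taken as FPKM from the values. Tools (STAR 2.7.1a, HISAT2 2.1.0, bcl2fastq) and builds (mm10, GRCm38.p5) are listed per the submitters' processing notes, with no order. The tool that made the values is not given in the sources used here. Symbols matched 51633 Ensembl genes. Coordinates and exonic lengths came from GENCODE M21 (GRCm38). MSTRG loci were not tested.

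Both KO libraries were compared with WT replicate 1 on log2(FPKM + 1), which understates changes of low genes. The fit used limma 3.58.1, with its prior variance following mean expression, in R 4.3.3. On simulated data for the KO pair against 1 WT library, it recovered 2 of 50 genes changed by 1 in log2. It recovered 16 of 50 changed by 2 and 49 of 50 changed by 4, with 6 false calls over 16580 genes. Most changes of the size seen in the checkpoint genes would thus be missed, and a gene that did not pass was not shown to be unchanged. Apart from the changed genes, the simulation drew all libraries around the same means with the spread of the KO pair. Its false calls therefore leave out differences in RNA content such as those of WT replicate 1. Genes needed a mean of 1 FPKM over the WT replicate 1 value and the KO mean, and fits with other libraries kept this gene set. Depth was estimated from whole-fragment steps in single-exon genes of effective length 225 to 250 bases below the annotated one (84.0% to 91.2% of low values within 0.1 of a whole number). The labels call the 2 libraries of a group biological replicates. The members, lists and tests were chosen with earlier results of these data known. All 10 members are named, with up to 4 genes of smallest p, or those that passed, from each related list. Alternatives covered libraries, replicate block, filter, pseudocount, scaling, subtraction and span.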

Additional observations from a re-analysis of the deposited data

How the results depend on the processing

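With all 4 libraries, with or without the replicate block, limma called 0 genes higher and 0 lower, 0 checkpoint genes and 0 genes of the related lists (2867 genes at an unadjusted p under 0.05 without the block and 2809 with it). The replicate numbers come from the titles, and same-numbered deviations correlated at 0.057, so the numbers were not taken to pair the libraries. Leaving out 1 library of the 4 gave 0 to 7480 genes higher and 0 to 4919 lower, 0 to 5 checkpoint genes higher and 0 to 2 lower, and 0 to 45 genes of the related lists higher and 0 to 2 lower. The upper counts are both KO libraries against WT replicate 2; without either KO library 184 genes had an unadjusted p under 0.05. With WT replicate 1 as the WT library, the counts moved with these choices. No filter gave 761 genes higher and 9265 lower over 30258 genes, 2 checkpoint genes higher, and 2 genes of the related lists higher and 1 lower. The filter at 5 FPKM gave 41 higher and 772 lower, with 0 checkpoint genes higher. A pseudocount of 0.1 gave 53 and 1160, with 0 checkpoint and 0 related genes higher. Equal FPKM totals gave 269 higher, and quantile normalization 536 higher with 0 checkpoint genes. Median-of-ratios factors left 0 checkpoint genes higher. Subtracting 0.138 of the WT replicate 2 profile gave 1033 lower, with 0 checkpoint and 0 related genes higher. Genes of short span, with 6 of the 10 checkpoint genes, gave 51 higher and 663 lower over 6670 genes, with 0 checkpoint and 0 related genes higher. Directions turned for 3 checkpoint genes that did not pass against WT replicate 1, and against WT replicate 2 alone Atr passed as lower (adjusted p = 0.0137) and Chek1 as higher (adjusted p = 0.0447). Atr was at -0.74 with all 4 libraries, with or without the block, at -1.56 to -0.73 with 1 library left out and at -0.056 with median-of-ratios factors. Atrip was at -0.18 and at -0.75 to -0.077 in the first 2 of these. Chek1 was at 0.39 with all 4 libraries, at 0.33 to 0.83 with 1 left out, at 0.16 with equal totals and at 0.099 with quantile normalization. The causes were not tested. The other 7 checkpoint genes kept their direction in each of these fits that tested them. KO replicate 1 alone put Cdc25c below WT replicate 1 (-0.11). WT replicate 2, at 2530000 implied fragments, has the least precise low values.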
